A study of Homo sapiens with 5 samples.

Results

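The genes described here are 10 human genes of oxidant and electrophile defence: the aldo-keto reductases AKR1B1, AKR1B10, AKR1C1 and AKR1C3, and the NRF2 target genes NQO1, GCLM, GCLC, TXNRD1, SRXN1 and GPX2. They were chosen by name, with earlier results of these data known. The shares of all genes given beside their counts are therefore descriptions and not tests. Every probe set that the array annotation assigns to 1 of these symbols alone was used. That gave 21 probe sets of the 54675 on the array, for 9 of the 10 genes. AKR1B1 had no probe set listed under its symbol alone and was not analysed here. Of the 21 probe sets, 18 passed the level filter, which asked for a highest value of at least 7.72 on the log2 scale, an intensity of 140, the median of all probe sets. All 9 measured genes passed through at least 1 probe set.

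The study profiled RNA from 5 established human pancreatic cell lines, cultured with no treatment recorded, on Affymetrix one-colour arrays with 1 array per line. HPAF1, PANC1, SU86.86 and L3.6 come from pancreatic carcinomas. HPDE is known as an immortalised line of pancreatic duct epithelium, although its source label groups it with the cancer lines. A line is a single lineage of cells and no line had a second culture, so no value for a line has an error of its own, and the number of arrays limits the precision of every value. Intensities are given as deposited. Differences are on the scale log2(intensity + 71.1), which understates the fold change of dim genes. The array medians lay between 137 and 143, and hybridisation spike-ins had a standard deviation between arrays of at most 0.14 on the log2 scale. All 5 epithelial markers passed the level filter, but on that scale CDH1 reached 8.61 in PANC1 and 9.92 in L3.6, and the duct keratin KRT7 was at 7.51 in PANC1 and at least 12.15 elsewhere. The duct marker SOX9 went the other way, at 11.36 in PANC1 against 7.92 in HPDE, its lowest line. The duct chloride channel CFTR did not exceed 7.74 in any line. Of the markers of other cells measured, 0 of 3 acinar, 1 of 4 islet, 4 of 4 fibroblast, 2 of 3 immune and 1 of 3 endothelial genes passed. COL1A1 lay between 10.05 and 10.78, on a probe set of a kind that can match more than 1 transcript. The other fibroblast markers were dimmer, with COL3A1 at most 7.83, LUM at most 7.84 and DCN at most 8.27. PECAM1 lay between 8.96 and 9.53, while insulin, the leukocyte marker PTPRC and the endothelial cadherin CDH5 were below the filter in every line.

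NRF2, encoded by NFE2L2, is a transcription factor that KEAP1 holds in check by presenting it to a CUL3 ubiquitin ligase. When electrophiles or oxidants modify KEAP1, NRF2 accumulates, pairs with small MAF proteins and binds antioxidant response elements (AREs) near genes that reduce quinones and aldehydes or build and recycle glutathione and thioredoxin. Several of these genes, AKR1B10, the AKR1C genes and NQO1 among them, are widely used as readouts of the pathway in epithelial cancers.

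The start regions of the member genes were searched for the ARE core, TGACNNNGC, on both strands in the 250 bases before each start in RefSeq (build GRCh38.p14). RefSeq entries were matched by symbol for 9 of the 10 genes, all but AKR1B10, with 12 start regions in all. A match was present in 4 of the 12 (33.3%), in GPX2, GCLM and 2 regions of TXNRD1. Of 35116 such regions of all genes, 10.9% held a match. The 4 stretches shown are all the matches found in these regions. Capitals mark the core, which reads as its reverse complement where it lies on the opposite strand.
GPX2, chr14:64942839-64942887, minus strand, core on the opposite strand: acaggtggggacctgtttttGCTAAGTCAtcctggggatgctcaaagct
GCLM, chr1:93909436-93909484, minus strand, core on the opposite strand: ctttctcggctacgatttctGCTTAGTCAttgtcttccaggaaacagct
TXNRD1, chr12:104286910-104286958, plus strand, core on the opposite strand: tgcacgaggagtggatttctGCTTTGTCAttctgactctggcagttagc
TXNRD1, chr12:104215660-104215708, plus strand, core on the gene's strand: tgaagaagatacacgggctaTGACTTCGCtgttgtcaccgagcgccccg
The cores began 122 bases before the start in GPX2, 34 in GCLM, and 102 and 99 in the 2 TXNRD1 regions. Of the 4 cores, 0 overlapped an AP-1 site, TGANTCA, which 6.57% of all such regions held. A match is a description of the letters and not of binding, and AREs that lie farther upstream are outside these windows.

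HPAF1 stood apart from the other lines for most of these genes. In HPAF1, 7 of the 9 measured genes had their highest level of the 5 lines, as did 23.6% of the 14896 genes above the level filter. AKR1B10, AKR1C1, AKR1C3, NQO1 and GPX2 were at least 2-fold above every other line in HPAF1, 5 of 9, against 2.69% of all genes. Without the AKR1C genes the count was 3 of 7. Leaving out probe sets of the types that may bind several transcripts removes AKR1B10 and NQO1, and the count was then 2 of 7. AKR1C1 is then represented by a dim probe set, with 142 intensity units in HPAF1 and at most 107 elsewhere. Against the mean of the other 4 lines, 6 of 9 were at least 2-fold higher in HPAF1 and 1, GCLM, was lower. The median difference was 1.82, or 1.01 without the probe sets that may bind several transcripts. Over all genes 6.95% were at least 2-fold higher, 6.3% were lower and the median was -0.005. Each line was also tested against the other 4 with limma across 33149 probe sets. In HPAF1, 1 of the 18 tested member probe sets, that of AKR1B10, passed the adjusted threshold of 0.05, against 0.205% of all probe sets. At an unadjusted limma p under 0.05 there were 10 of 18 in HPAF1, against 9.56% of all. These 10 came from 6 genes, so they are not separate observations. The dimmer GPX2 probe set, 1 of the 10, passed the level filter only through its HPAF1 level, 8.42, as did dim AKR1C1 probe sets among the 18. The limma test has 3 residual degrees of freedom and takes the spread between different cell lines as its error.

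**Figure D1:**
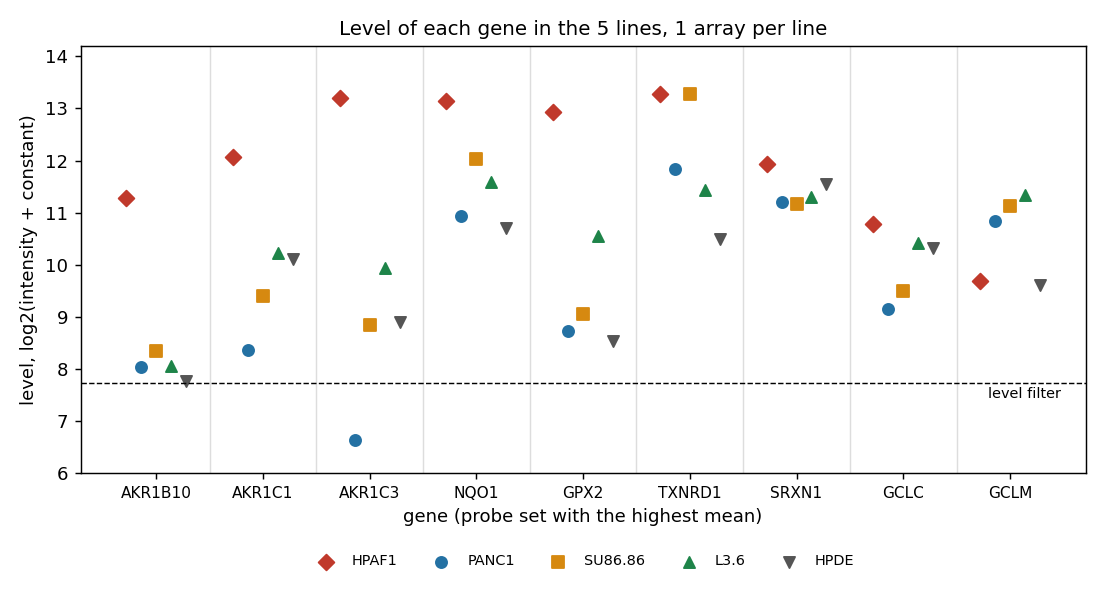
Level of 9 genes in the 5 lines on the scale log2(intensity + 71.1), 1 point per line and no error bars because there was 1 array per line; the dashed line is the level filter at 7.72. The HPAF1 diamonds lie at the top for 7 of 9 genes, share the top with SU86.86 for TXNRD1 and lie near the bottom for GCLM.

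Among the aldo-keto reductases, AKR1B10 reduces retinaldehyde and many reactive aldehydes and is often raised in squamous and other epithelial tumours. Its intensity was 2409 in HPAF1, against PANC1 at 190, SU86.86 at 253, L3.6 at 196 and HPDE at 145. The 4 other lines lay close together and just above the level filter, and HPAF1 was the single high line. The difference was 3.23 (SE 0.265, limma adjusted p = 0.0471), higher in HPAF1 than in 4 of 4 other lines. The SE rests on those 4 lines, which lay within 0.58 of each other, and on limma's moderation with the spread of all probe sets. The call did not hold with any 1 line left out, when the adjusted p lay between 0.113 and 0.249, with an added constant of 16 (0.0643) or none (0.0728), or with a stricter level filter (0.0576), while the difference stayed between 3.13 and 3.65. AKR1B10 has a single probe set here, of a kind that can match more than 1 transcript.

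AKR1C1 inactivates progesterone, and AKR1C3 reduces androgen, oestrogen and prostaglandin precursors. They lie next to AKR1C2 on chromosome 10 and have closely similar sequences, so cross-matching between their transcripts was possible. AKR1C3 had the widest range of all members, 6.56, with an intensity of 9332 in HPAF1, against PANC1 at 28.5, SU86.86 at 388, L3.6 at 909 and HPDE at 406. HPAF1 was far above the rest, PANC1 lay below the level filter, so that the range and the differences that include it depend on the added constant, and SU86.86 and HPDE differed by 0.06, less than the spike-in spread. The difference of HPAF1 from the other lines was 4.62 (SE 1.24, limma adjusted p = 0.347), which did not pass.

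For AKR1C1 the probe set with the highest mean read 4219 in HPAF1, against PANC1 at 258, SU86.86 at 605, L3.6 at 1121 and HPDE at 1028. The line order matched that of AKR1C3 at both ends, HPAF1 highest and PANC1 lowest. The next probe set gave 4548 in HPAF1, against 268, 534, 989 and 850 in PANC1, SU86.86, L3.6 and HPDE. The 3 other AKR1C1 probe sets were dim in every line, with at most 169 intensity units, and 1 of them failed the level filter. HPAF1 was the highest line on 2 of those 3 as well, but by at most 0.35 over the mean of the others. The HPAF1 difference was thus 2.55 (SE 0.78) and 2.79 (SE 0.68) on the 2 bright probe sets, with limma adjusted p of 0.404 and 0.298. Both are of the kind that can match several transcripts. AKR1C2, a close relative that also inactivates progesterone and other steroid hormones, read 4078 in HPAF1, against 164, 522, 1017 and 803 in PANC1, SU86.86, L3.6 and HPDE, on a probe set of the same kind. How much of each signal comes from which AKR1C transcript cannot be told apart on these probe sets.

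**Figure D2:**
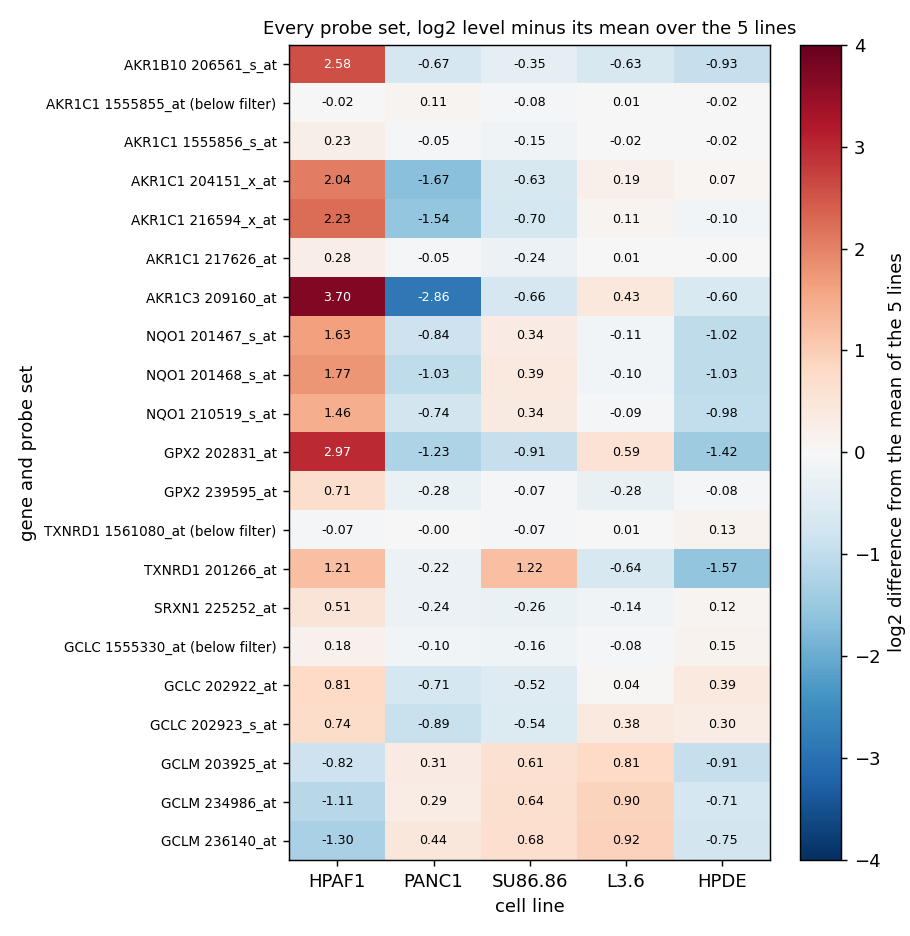
Every one of the 21 probe sets of the 9 genes (rows) in the 5 lines (columns), as log2 level minus the probe set's own mean over the lines; colour and printed value give the same number. Bright probe sets of 1 gene ran together, as for NQO1, GCLM and GCLC, and the dim ones of AKR1C1, GPX2, TXNRD1 and GCLC varied less.

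NQO1 reduces quinones in a single step that avoids reactive semiquinones. On the brightest of its probe sets it read 8935 in HPAF1, against PANC1 at 1893, SU86.86 at 4087, L3.6 at 3009 and HPDE at 1596. HPAF1 was highest, SU86.86 and L3.6 intermediate, and PANC1 and HPDE lowest. HPAF1, SU86.86 and L3.6 kept this order on 3 of 3 probe sets, and PANC1 and HPDE were within 0.24 of each other on each. The HPAF1 difference was 1.82 (SE 0.56, limma adjusted p = 0.406), and 2.03 and 2.21 on the other probe sets.

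GPX2 is the glutathione peroxidase of the gastrointestinal epithelium, a selenoprotein that reduces hydroperoxides, and its start region holds the ARE core printed above. It read 7743 in HPAF1, against PANC1 at 354, SU86.86 at 459, L3.6 at 1425 and HPDE at 301. HPAF1 was the high line and L3.6 came second, while the other 3 lay within 0.51 of each other. The difference was 3.72 (SE 0.83, limma adjusted p = 0.263). A dimmer probe set also put HPAF1 first, at 271 against at most 128 elsewhere, but did not separate L3.6 from the rest.

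The 5 genes whose pattern over the 5 lines was most like that of AKR1C3, the member with the widest range, were KRT23, an acidic keratin, TMPRSS4, a membrane serine protease, AKR1C2, POF1B and ADD3. Likeness was the root mean square difference of the log2 profiles, each centred on its own mean, and it was 0.56 for KRT23 and 0.85 for ADD3. AKR1C1 came at place 14 and GPX2 at place 8 among all genes. For GPX2, the member with the second widest range, they were SLC1A1, a glutamate and cysteine transporter, KITLG, the ligand of the KIT receptor, GPX3, the secreted glutathione peroxidase, MMP1, a collagenase, and SATB1, a chromatin organiser, at 0.36 to 0.52. AKR1B10 was at place 24 for GPX2. GCLM was at place 12876 for GPX2 and 13637 for AKR1C3, of 14896 genes. With 5 lines, 1 high line decides most of such a likeness.

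TXNRD1, the cytosolic thioredoxin reductase, is a selenoprotein that keeps thioredoxin reduced. It read 9842 in HPAF1, against PANC1 at 3607, SU86.86 at 9895, L3.6 at 2682 and HPDE at 1373. Here 2 lines were high, HPAF1 and SU86.86, and their order could not be settled, since they differed by 0.008 on the log2 scale. HPDE was the lowest line, 1.96 below the mean of the carcinoma lines (SE 0.87, limma adjusted p = 0.630). The HPAF1 difference was 1.51 (SE 1.04, limma adjusted p = 0.781). The second probe set of TXNRD1 was below the level filter in every line.

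SRXN1, sulfiredoxin, restores overoxidised peroxiredoxins. It was bright in every line and varied least of the 9 genes, with a range of 0.77. It read 3858 in HPAF1, against PANC1 at 2275, SU86.86 at 2238, L3.6 at 2438 and HPDE at 2940. HPAF1 was highest and HPDE second, and L3.6, PANC1 and SU86.86 followed each other by less than the spike-in spread. The HPAF1 difference was 0.64 (SE 0.22, limma adjusted p = 0.475).

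GCLC and GCLM encode the catalytic and the modifier subunit of glutamate-cysteine ligase, the rate-limiting enzyme of glutathione synthesis, and the lines ordered them differently. GCLC read 1678 in HPAF1, against PANC1 at 494, SU86.86 at 649, L3.6 at 1292 and HPDE at 1212. HPAF1 was highest and PANC1 lowest, and L3.6 and HPDE lay within 0.09 of each other. A second GCLC probe set gave 1255 in HPAF1, against 390, 455, 705 and 922 in PANC1, SU86.86, L3.6 and HPDE, with L3.6 and HPDE in the other order.

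GCLM instead read 758 in HPAF1, against PANC1 at 1755, SU86.86 at 2168, L3.6 at 2505 and HPDE at 712. HPAF1 and HPDE were the low lines, 0.08 apart, and the 3 other carcinoma lines lay at least 1.14 above HPAF1. The other probe sets gave 143 and 159 in HPAF1, against 211 and 266 in HPDE, and between 493 and 994 in PANC1, SU86.86 and L3.6. HPAF1 was thus the lowest line on 2 of 3 GCLM probe sets and the highest on both GCLC probe sets above the filter. The HPAF1 difference for GCLM was -1.03 (SE 0.70), -1.39 (SE 0.65) and -1.62 (SE 0.68), with limma adjusted p of 0.777, 0.622 and 0.568. For GCLC it was 0.93 (SE 0.58) and 1.01 (SE 0.48), with adjusted p of 0.743 and 0.628. None of these passed, and the difference between the genes was not tested.

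**Figure D3:**
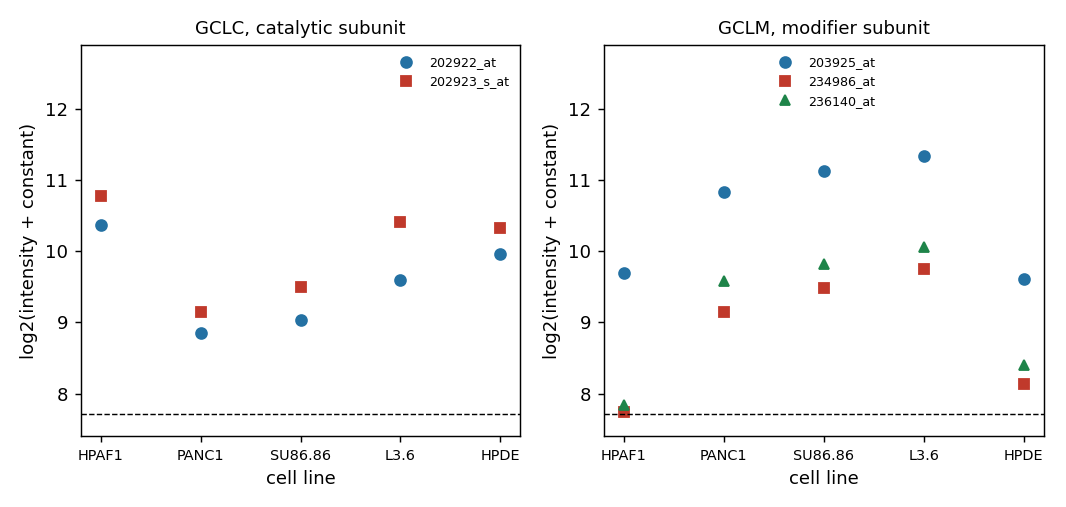
Log2 levels of the GCLC probe sets (left) and GCLM probe sets (right) above the level filter in the 5 lines, 1 point per probe set and line; the dashed line is the level filter. HPAF1 has the highest GCLC points and, with HPDE, the lowest GCLM points, while PANC1 and SU86.86 have the lowest GCLC points and high GCLM points.

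The carcinoma lines were next set against HPDE. There is 1 array on each side and HPDE is shared by all 4 differences, so these are sizes with no test. In HPAF1, 6 of 9 genes were at least 2-fold higher than in HPDE and 0 were lower, against 7.77% and 9.27% of all genes. They were GPX2 (4.39), AKR1C3 (4.30), AKR1B10 (3.52), TXNRD1 (2.78), NQO1 (2.43) and AKR1C1 (1.97). Without probe sets of the multi-match types the number higher was 3 of 7, with AKR1C1 represented by a dim probe set. In PANC1, 2 were higher, TXNRD1 (1.35) and GCLM (1.22), and 3 were lower, AKR1C1 (-1.74), GCLC (-1.18) and AKR1C3, whose level in PANC1 was below the filter so that its difference has no exact size, against 8.47% and 9.26% of all genes. With the probe sets of a gene averaged, these became 1 higher and 1 lower.

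In SU86.86, 3 were higher, TXNRD1 (2.79), GCLM (1.52) and NQO1 (1.32), and 0 were lower, against 8.44% and 7.72%. In L3.6, 3 were higher, GPX2 (2.01), GCLM (1.72) and AKR1C3 (1.04), and 0 were lower, against 6.55% and 8.59%. On the probe set with the highest mean, TXNRD1, NQO1, AKR1B10 and GPX2 were above HPDE in all 4 carcinoma lines, with the smallest difference 0.93 for TXNRD1, 0.24 for NQO1, 0.27 for AKR1B10 and 0.19 for GPX2. On the other NQO1 probe sets PANC1 was above HPDE by 0.18 and 0.002, the last far under the spike-in spread, and on the dimmer GPX2 probe set PANC1 and L3.6 were below HPDE. HPDE was the lowest of the 5 lines for 5 of 9 genes, against 22.7% of all genes. For GCLM, 1 of the 5, HPDE lay 0.08 below HPAF1, within the spike-in spread, and HPAF1 was lowest on the other GCLM probe sets. In the limma tests of HPDE, PANC1, SU86.86 and L3.6 against the other 4 lines, 0 of 18 member probe sets passed, and 0 had an unadjusted p under 0.05. Over all probe sets 0.0181% passed for HPDE, 0.00302% for PANC1, and 0% for SU86.86 and L3.6, for which 1377 and 1125 probe sets had an unadjusted p under 0.05.

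**Figure D4:**
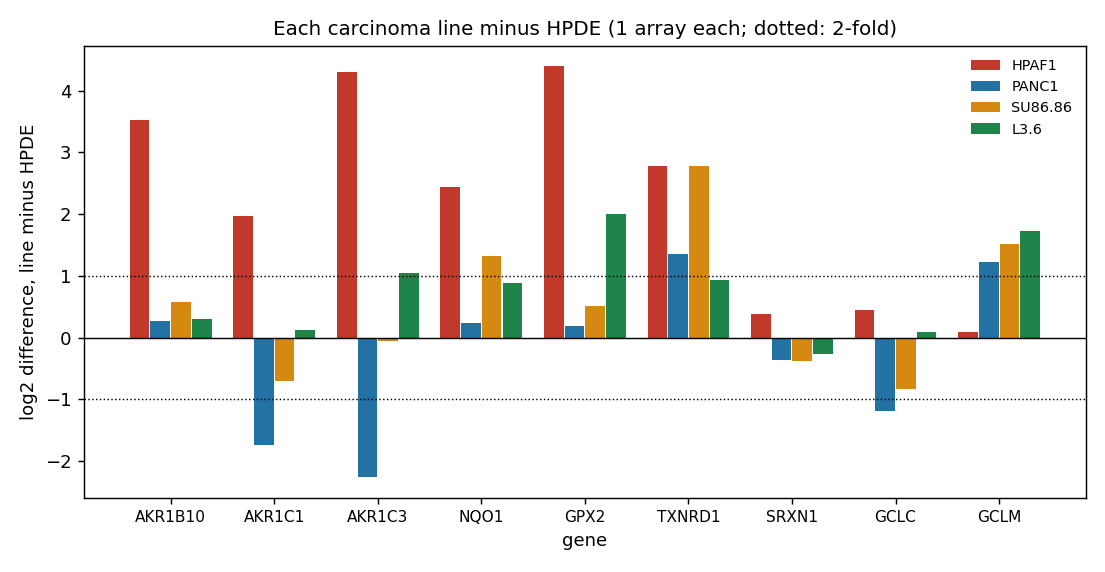
Log2 difference of each carcinoma line from HPDE for the 9 genes, 1 bar per line, with 1 array on each side and no error; dotted lines mark 2-fold. Bars of HPAF1 exceed 2-fold for 6 genes, GCLM exceeds it in the 3 other carcinoma lines, and SRXN1 stays under 2-fold in all 4; the AKR1C3 bar of PANC1 rests on a level below the filter.

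Of the 10 listed genes that control NRF2, 9 were measured and all 9 passed the level filter. In HPAF1, 1 of 9 was at least 2-fold higher and 0 were at least 2-fold lower than the other lines' mean, against 6.95% and 6.3% of all genes, and their median difference was 0.14. NFE2L2 itself stood at 12.02 in HPAF1, with PANC1 at 11.07, SU86.86 at 11.05, L3.6 at 11.21 and HPDE at 12.15. HPDE and HPAF1 were the high lines. KEAP1 stood at 10.12 in HPAF1, with PANC1 at 10.87, SU86.86 at 10.10, L3.6 at 11.01 and HPDE at 9.82, and varied by 1.20. The gene at least 2-fold higher was MAFF, a small MAF protein, at 10.89 in HPAF1 and 10.80 in SU86.86, against 8.97 in PANC1. BACH1, a repressor that competes with NRF2 for AREs, was also high in HPAF1 (10.65) and SU86.86 (10.75) and low in PANC1 (8.87). RBX1, the RING subunit of the ligase, was at 10.57 in HPDE and at least 11.59 in the other lines.

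Of 24 other listed targets of NRF2, 22 were measured and 21 passed the level filter. Of these, 8 were at least 2-fold above the mean of the other lines in HPAF1 and 1 was lower, against 6.95% and 6.3% of all genes, with a median of 0.43 and 0 passing limma. The genes with the widest range included ABCC3, an efflux pump for conjugates, at 11.94 in HPAF1, against 10.34 in SU86.86 and 8.37 in L3.6. ALDH3A1, an aldehyde dehydrogenase, was at 10.59 in HPAF1 and 10.15 in L3.6, against 7.15 in PANC1 and 7.18 in HPDE. The cystine transporter SLC7A11 was at 12.18 in HPAF1 and 12.11 in HPDE, against 9.19 in PANC1. MGST1, a membrane glutathione transferase, was at 12.54 or above in 4 lines and at 9.16 in PANC1. At least 2-fold above every other line in HPAF1 were 4 of 21, against 2.69% of all genes. Named here after their values were seen, they were ABCC3, ABCC2, another efflux pump, UGDH, which makes UDP-glucuronate, and the epoxide hydrolase EPHX1. ABCC2 was dim, at 8.25 in HPAF1 and at most 7.21 elsewhere. It passed the level filter only through HPAF1, and it is also among the 8 above. The 1 gene at least 2-fold lower in HPAF1 was PIR, at 8.61 in HPAF1, with PANC1 at 8.67, SU86.86 at 8.87, L3.6 at 11.02 and HPDE at 10.05. L3.6 and HPDE were its high lines, and HPAF1 and PANC1 lay close together. HMOX1, haem oxygenase, was highest in PANC1, at 10.07 against at most 8.37 elsewhere.

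Of 9 further aldo-keto reductases, 6 were measured and 5 passed the filter. In HPAF1, 2 were at least 2-fold higher than the mean of the others, AKR1C2 (2.78) and AKR1C4 (1.08), a mainly hepatic relative. AKR1C4 was dim at 7.93 in HPAF1 and at most 7.08 elsewhere, so it passed the filter only through HPAF1. Over all genes 6.95% were at least 2-fold higher. AKR7A3 was at 10.57 in HPAF1 and between 9.50 and 10.14 in the other lines. AKR7A2, an aldehyde reductase, ranged over 0.50. Of the 17 further glutathione and thioredoxin genes, 15 were measured, and 2 were at least 2-fold higher in HPAF1, against 6.95% of all genes, with a median of 0.06. These were GPX3, at 12.02 in HPAF1, 10.76 in L3.6 and 7.86 in PANC1, and the glutaredoxin GLRX, which was higher still in SU86.86 (11.94) than in HPAF1 (11.31). PRDX2 was highest in L3.6 (12.58) and catalase, CAT, in PANC1 (11.31). In these 3 groups and among the NRF2 control genes, 0 genes passed limma in HPAF1.

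**Figure D5:**
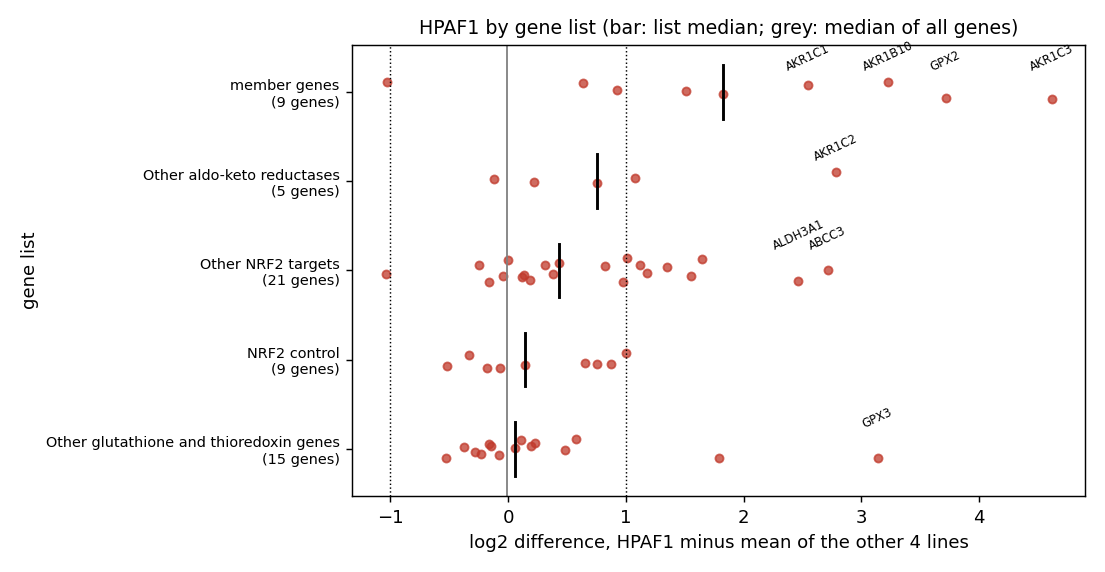
Log2 difference of HPAF1 from the mean of the other 4 lines for the genes above the level filter in 5 lists, 1 point per gene; black bars are list medians, the grey line is the median of all genes and dotted lines mark 2-fold. The medians run from 1.82 for the member genes to 0.06 for the other glutathione and thioredoxin genes.

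In PANC1, AKR1C1 and AKR1C3 were at least 2-fold below every other line, as were 1.6% of all genes, and GCLC was lowest there as well. For AKR1C1 this held on the probe set with the highest mean, while the other bright one stood at 8.40 in PANC1 and 9.24 in SU86.86, under 2-fold apart. Epithelial markers were also higher in HPAF1 than in PANC1. KRT8, KRT18, KRT19 and EPCAM, 4 of 5, were highest in HPAF1, as were 23.6% of all genes, while CDH1 was highest in HPDE. KRT19, EPCAM and CDH1 were lowest in PANC1, but KRT8 and KRT18 were lowest in HPDE. CD14, a monocyte marker that epithelial lines can also express, was at 8.72 in HPAF1 and at most 7.71 elsewhere. The part of these in the levels of the member genes was not tested.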

How the data were processed

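The authors deposited 1 table of linear intensity values, 54675 probe sets by 5 arrays. Per the labels' protocols, RNA was purified with a QIAGEN RNeasy kit and labelled with biotin by the one-cycle kit of the array's maker. No source used here states how the deposited intensities were summarised, scaled or background-corrected. The values were used without further normalization. The 62 control probe sets were left out, and 71.1, the 25th percentile of the positive values, was added before log2.

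Of the other probe sets, 41091 had 1 symbol in the platform annotation, 1801 had several and 11721 had none or were not listed. Symbols were updated by gene ID through RefSeq (GRCh38.p14) for 41037. A gene was represented by its probe set with the highest mean, giving 19775 genes, 14896 of them above the level filter, and 33149 probe sets passed it. Each line was tested against the other 4 with limma 3.58.1 in R 4.3.3, two-sided, with Benjamini-Hochberg adjustment over the 33149 probe sets. The procedure was also run on simulated data in which every probe set had the same spread. The simulated shift in HPAF1 was larger than any member difference, so that run checked the code and not the calls made here. The lone line is assumed to vary as the others do. A p-value sets its difference against the spread among the other 4 lines, which limma moderates with the spread of all probe sets.

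The member genes, lists and tests were chosen with earlier results of these data known. All members are named, with at most 4 genes per list by widest range, NFE2L2 and KEAP1, the 5 genes most like each of 2 members, and genes named after their values were seen. These last were HMOX1, PIR, UGDH, EPHX1 and ABCC2. Alternatives were another added constant, quantile normalization, other level filters, leaving out probe sets of the multi-match types, the mean of all probe sets and leaving out each line.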

Additional observations from a re-analysis of the deposited data

How the results depend on the processing

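The direction of the 9 HPAF1 differences held in all 86 recomputed values, but part of these could not change. Changing the level filter leaves a difference as it was. So does leaving out probe sets of the multi-match types, for genes whose probe set stays. AKR1B10, AKR1C1, NQO1 and GCLC have no value there, and the mean of a gene's probe sets is not among the 86. AKR1B10, the only HPAF1 difference called, lost its call in 7 of 9 alternatives. The limma count for HPAF1, 68, was 42 with an added constant of 16, 135 with no level filter, 26 with a stricter filter (the 75th percentile) and 40 when probe sets of the multi-match types were left out (a restricted set, named so from here on). For HPDE, 6, it was 0 under the added constants, the stricter filter and the restricted set, and for PANC1, 1, it was 0 under the same 4. SU86.86 had 3 with no filter and 4 with the restricted set, and L3.6 had 5 with no filter. With any 1 line left out limma called 0 to 0 probe sets for HPAF1, HPDE and PANC1. Where 0 were called, between 465 and 4195 had an unadjusted p under 0.05.

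The genes at least 2-fold above every other line in HPAF1 numbered 2 with the restricted set, 3 without the AKR1C genes and 5 to 6 with 1 line left out. In the restricted set 7 member genes were above the filter, AKR1C1 through a dim probe set. Alternatives for this count were chosen after seeing the data. Against HPDE, HPAF1 had 3 higher with the restricted set, and PANC1 had 1 higher and 1 lower when a gene's probe sets were averaged.

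The median difference of the member genes was 1.82 in HPAF1, 1.19 with a gene's probe sets averaged, 1.01 with the restricted set and 1.62 to 2.06 with 1 line left out. In HPDE it was -1.14, with -0.90, -0.76 and -1.47 to -0.39 under the same settings. In L3.6 it was 0.24, with 0.075, 0.046 and -0.30 to 0.76. In PANC1 it was -0.92, with -0.29 for the restricted set and -1.20 to -0.50 with 1 line left out, and in SU86.86 -0.44, with -0.69 to 0.35. Without HPAF1 the HPDE median was -0.39, the PANC1 median -0.50, the L3.6 median 0.76 and the SU86.86 median 0.35, and without PANC1 the L3.6 median was -0.30. The cause of these shifts was not tested, beyond fewer genes, probe sets or lines entering. No paired analysis was possible because each line has 1 array. Moves under 0.14, the largest spike-in standard deviation, were taken as none.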
